A study of Mus musculus with 16 samples.

Results

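The joining (J) genes Trbj2-1 to Trbj2-6 of the mouse T cell receptor β locus were examined in tumor-infiltrating T cells. They were chosen by name as every J gene of the Trbj2 cluster other than Trbj2-7, which left 6 of the 14 J genes in the data. These 6 carried 91418 of 198953 unique rearrangements (45.9%), against 41256 (20.7%) for Trbj2-7 and 66035 (33.2%) for the Trbj1 genes. Another 244 rearrangements had no single J gene, and 237 of them tied Trbj2-5 with Trbj2-7.

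The T cells came from tumors of KPC.Luc cells, which are mouse pancreatic ductal adenocarcinoma cells that express luciferase, grown under the skin of female C57BL/6 mice that carried no engineered allele in the labels. Control mice received scrambled peptide with isotype IgG, the ANT008 group received ANT008, a peptide antagonist of the receptors for vasoactive intestinal peptide, with isotype IgG, the anti-PD-1 group received scrambled peptide with anti-PD-1, and the combination group received ANT008 with anti-PD-1. Peptides were given daily at 10 µg and antibodies every 3 days at 200 µg, for 10 days, with 4 mice per group and 1 sample per mouse. T cells were enriched by magnetic beads against CD90.2, so the fraction was not pure, and since only TCRβ rearrangements were read, no marker of another cell type could be checked. The labels gave no age for these mice.

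A TCRβ chain is built in the thymus by joining 1 D gene to 1 J gene and then 1 V gene to the D-J joint. Bases are trimmed from the gene ends and others are added without a template, and the resulting joint encodes CDR3, the loop that meets the peptide antigen. The locus holds a cluster of Trbd1 with the Trbj1 genes, followed by a second cluster of Trbd2 with the Trbj2 genes, so Trbd1 can join either J cluster whereas Trbd2 lies downstream of Trbj1. J genes encode the last residues of CDR3 and a phenylalanine that closes the loop. Rearrangements read out of frame make no receptor and are carried along by cells whose other allele is productive. Each unique rearrangement was counted once in unique shares, and by its templates, the estimated starting molecules, in template shares.

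Total templates per sample ranged from 11317 to 99411, of which 7180 to 72588 were productive. Productive here means listed by the sequencing service as in frame with no stop codon. That label was not checked against the bases of the V gene. Between 2526 and 13939 unique productive and 1696 and 7295 unique out-of-frame rearrangements were found per sample. Rearrangements with 1 template made up 66.6% to 81.2% of those with the 6 J genes. Whether RNA or DNA was amplified is not settled by the sources, so a template may be a transcript rather than a cell, and a larger clone cannot be told apart from more RNA per cell.

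The J ends below are the germline bases that the reads retain when nothing is trimmed, and they are shown because trimming, CDR3 length and ties between genes all turn on them. The capitals mark the bases lost at the median J deletion of each gene, over all its rearrangements. The reads stop just before the last codon of CDR3.

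Trbj2-1: TAActatgctgagcagttc

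Trbj2-2: CAaacaccgggcagctctac

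Trbj2-3: Agtgcagaaacgctgtat

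Trbj2-4: Agtcaaaacaccttgtac

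Trbj2-5: AACcaagacacccagtac

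Trbj2-6: cagcccttgccctgact

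Trbj2-7: CTCCtatgaacagtac

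Trbj2-5 and Trbj2-7 share the bases cagtac at this end, and the 237 tied rearrangements, which held 571 templates, kept no more than these 6. The ties amounted to 1.07% of the Trbj2-5 and tied rearrangements together.

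The following productive rearrangements are shown because each took the largest share of its sample among the 6 J genes and, in several mice, set the level of its J gene. The capitals mark the J-derived bases.

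Trbv1 with Trbj2-2, control replicate 2: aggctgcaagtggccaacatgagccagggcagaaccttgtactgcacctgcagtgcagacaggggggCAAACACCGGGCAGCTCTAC

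Trbv1 with Trbj2-2, ANT008 replicate 2: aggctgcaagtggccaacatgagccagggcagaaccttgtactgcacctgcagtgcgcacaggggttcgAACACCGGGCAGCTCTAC

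Trbv14 with Trbj2-4, anti-PD-1 replicate 1: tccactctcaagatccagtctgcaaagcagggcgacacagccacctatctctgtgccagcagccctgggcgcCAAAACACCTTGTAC

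Trbv13-1 with Trbj2-1, ANT008 replicate 3: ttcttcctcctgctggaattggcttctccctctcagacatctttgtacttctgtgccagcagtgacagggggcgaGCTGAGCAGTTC

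Trbv14 with Trbj2-1, ANT008 replicate 4: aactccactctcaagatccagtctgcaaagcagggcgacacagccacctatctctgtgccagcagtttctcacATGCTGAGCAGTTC

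Trbv14 with Trbj2-1, anti-PD-1 replicate 2: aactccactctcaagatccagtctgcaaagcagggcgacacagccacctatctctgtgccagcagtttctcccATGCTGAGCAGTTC

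Among unique productive rearrangements the 6 genes stood in a fixed order. Trbj2-1 (TCRBJ02-01 in the service's naming) took 13.0% ± 0.763 (SD, n = 16), Trbj2-5 (TCRBJ02-05) took 11.2% ± 0.572, Trbj2-3 (TCRBJ02-03) took 8.54% ± 0.323, Trbj2-4 (TCRBJ02-04) took 7.83% ± 0.384 and Trbj2-2 (TCRBJ02-02) took 5.61% ± 0.369. This order was found in 16 of 16 mice for all 10 pairs of genes. Even the closest neighbors, Trbj2-3 and Trbj2-4, differed in the same direction in every mouse, by 0.713 percentage points on average (SD 0.422). Trbj2-6 (TCRBJ02-06), which is annotated as a J pseudogene, was nearly absent.

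Trbj2-1 ranged from 11.4% to 13.3% of unique productive rearrangements in control, from 12.5% to 13.4% in the ANT008 mice, from 12.4% to 14.2% in the anti-PD-1 mice and from 12.9% to 13.9% under the combination. The ranges of all 4 groups overlapped. The widest range of another gene over the 16 mice was that of Trbj2-5, from 10.2% to 12.03%.

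Template shares moved far more from mouse to mouse. Trbj2-1 made up 10.5%, 11.5%, 15.2% and 8.16% of productive templates in the control mice, 18.8%, 15.2%, 27.3% and 18.7% in the ANT008 mice, 12.4%, 19.7%, 11.0% and 12.4% in the anti-PD-1 mice, and 11.97%, 9.51%, 10.3% and 14.4% in those given the combination. The ANT008 mice were high, although their lowest value fell just under the highest control. Trbj2-2 made up 3.63%, 23.2%, 4.88% and 1.88% in control, 3.04%, 14.0%, 2.56% and 3.89% in the ANT008 mice, 4.47%, 4.14%, 4.63% and 3.37% in the anti-PD-1 mice, and 12.1%, 6.11%, 8.35% and 4.16% in those given the combination. A single mouse stood far above the others both in control and with ANT008, and all 4 groups overlapped.

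Trbj2-3 made up 7.30%, 6.03%, 11.1% and 6.80% of productive templates in control, 7.49%, 6.03%, 6.59% and 11.7% in the ANT008 mice, 5.85%, 6.64%, 5.09% and 8.06% in the anti-PD-1 mice, and 7.48%, 20.7%, 10.8% and 7.32% in those given the combination. Combination replicate 2 was the highest of the 16 mice and the groups overlapped. Trbj2-4 made up 1.90%, 3.76%, 5.108% and 2.78% in control, 4.40%, 4.35%, 8.05% and 4.04% in the ANT008 mice, 23.1%, 5.111%, 5.33% and 6.20% in the anti-PD-1 mice, and 4.60%, 4.67%, 3.96% and 4.27% in those given the combination. Anti-PD-1 replicate 1 was the highest, and the anti-PD-1 mice lay just clear of the controls. Trbj2-5 made up 5.47%, 8.82%, 6.93% and 4.34% in control, 7.55%, 13.8%, 12.4% and 11.5% in the ANT008 mice, 6.54%, 7.85%, 6.35% and 8.73% in the anti-PD-1 mice, and 11.4%, 7.46%, 4.75% and 8.53% in those given the combination. Of the ANT008 mice, 3 were above every control, but the groups overlapped.

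**Figure D1:**
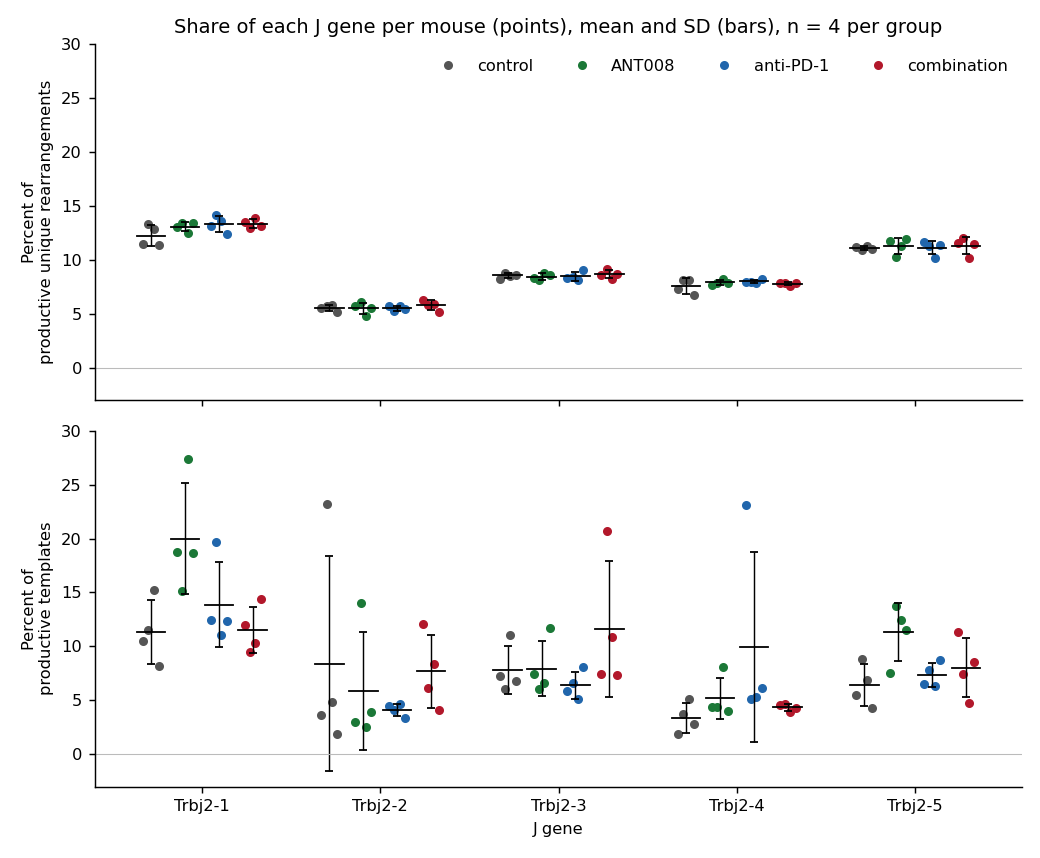
Share of each of the 5 J genes among productive unique rearrangements and among productive templates (percent of the sample, y axis), with 1 point per mouse, colored by treatment group, and the mean and SD of each group. Unique shares lie close together within each gene, whereas template shares spread widely, with Trbj2-2 at 23.2% in control replicate 2, Trbj2-4 at 23.1% in anti-PD-1 replicate 1 and Trbj2-1 at 27.3% in ANT008 replicate 3.

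To ask whether the treatments changed the use of these J genes, template counts were compared with control by the edgeR quasi-likelihood test with Benjamini-Hochberg adjustment over the 12 J genes with enough counts, 5 of them among the 6 genes. All contrasts share the same control mice. With anti-PD-1, only Trbj2-4 was called. It went from 3.39% ± 1.38 to 9.94% ± 8.80 of productive templates (SD, n = 4 each), a log2 fold change of 1.55 (SE 0.452, adjusted p = 0.00922 by edgeR). It was the single J gene called of the 12 tested (8.33%). Without anti-PD-1 replicate 1 the log2 fold change was 0.71 (adjusted p = 0.441), and without control replicate 1 it was 1.36 (adjusted p = 0.0717). Leaving out the most frequent rearrangement of each sample gave 0.68 (adjusted p = 0.257), and the exact permutation test of the shares gave an adjusted p of 0.343. With 4 mice per group, this is the lowest value that the permutation test can give to 1 gene alone of the 12. That test could not have called Trbj2-4 by itself, whatever the size of its change.

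With ANT008, 0 of the 5 genes were called and 0 of the 12 (0%). Trbj2-1 went from 11.3% ± 2.95 to 19.99% ± 5.17 (log2 fold change 0.82, SE 0.314) and Trbj2-5 from 6.39% ± 1.94 to 11.3% ± 2.68 (0.82, SE 0.332), each with an adjusted p of 0.0848 by edgeR and an unadjusted p of 0.0101 and 0.0141. Both were under the threshold without control replicate 2, at log2 fold changes of 0.82 and 1.02 (adjusted p = 0.0454 by edgeR for each), and Trbj2-1 also without control replicate 3 (0.99, adjusted p = 0.0482). DESeq2 called neither. With the combination, 0 of the 5 genes were called or had an unadjusted p under 0.05 by edgeR, and DESeq2 also called 0, against 8.33% of all J genes tested. Log2 fold changes there ran from −0.13 for Trbj2-2 to 0.57 for Trbj2-3.

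The interaction of the treatments, that is, whether the combination departed from the sum of both single treatments on the log2 scale, was called for 0 of the 5 genes (0% of the 12), and DESeq2 also called 0. Unadjusted, 2 of the 5 were under 0.05. Trbj2-4 had an interaction of −1.80 (SE 0.630, adjusted p = 0.0575 by edgeR) and Trbj2-1 of −1.08 (SE 0.442, adjusted p = 0.0926). Trbj2-4 passed when ANT008 replicate 2 was left out (−1.88), when replicate 2, 3 or 4 of the anti-PD-1 group was (−2.02, −2.01 and −1.97), or when control replicate 3 was (−2.07), and Trbj2-1 without ANT008 replicate 2 (−1.19) or control replicate 3 (−1.26).

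Counted as unique rearrangements, none of the 5 genes was called by edgeR in any contrast (0% of the 12 J genes in each), and DESeq2 called 0 as well. Log2 fold changes against control ran from −0.04 to 0.11. Trbj2-1 had the largest, 0.11 with anti-PD-1 (unadjusted p = 0.0304 and adjusted p = 0.364 by edgeR) and 0.11 with the combination (unadjusted p = 0.0295, adjusted p = 0.177). Without control replicate 2 the latter was 0.15 (adjusted p = 0.0352).

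Summed over the 6 genes, 28.9%, 53.3%, 43.2% and 23.96% of productive templates used them in the control mice, 41.3%, 53.4%, 57.0% and 49.8% in the ANT008 mice, 52.4%, 43.4%, 32.4% and 38.7% in the anti-PD-1 mice, and 47.5%, 48.5%, 38.2% and 38.6% in those given the combination. Control held both the lowest share and one of the highest, and every group overlapped it. In an exact permutation form of Dunnett's comparison with control, two-sided over 63063000 assignments of the mice, the differences were 13.01 percentage points for ANT008 (p = 0.152), 4.41 for anti-PD-1 (p = 0.8293) and 5.88 for the combination (p = 0.687). The summed share of unique rearrangements was 45.1% ± 2.01, 46.3% ± 0.786, 46.5% ± 0.713 and 47.0% ± 1.04 in the same order of groups (exact permutation p = 0.429, 0.319 and 0.119). Over the 15 comparisons of this family the lowest Benjamini-Hochberg adjusted p was 0.713.

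The large template shares were carried by few clones. In control replicate 2, a Trbv1 and Trbj2-2 rearrangement, the first sequence shown above for a clone, held 7510 templates, or 18.2% of productive templates (95% Wilson interval 17.8% to 18.6%, which here and below covers counting error only) and 78.6% of all Trbj2-2 templates. In anti-PD-1 replicate 1, the Trbv14 and Trbj2-4 rearrangement with the CDR3 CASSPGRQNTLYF held 5640 templates, or 17.5% (17.1% to 17.9%) and 75.8% of the Trbj2-4 templates. In ANT008 replicate 3, the Trbv13-1 and Trbj2-1 rearrangement with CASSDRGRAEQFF held 13.8% (13.2% to 14.4%) and 50.4% of the Trbj2-1 templates.

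The other Trbv1 and Trbj2-2 rearrangement, in ANT008 replicate 2, held 8.82% of productive templates and 63.0% of that J gene's. A different pattern was seen in combination replicate 2, where Trbj2-3 made up 20.7% of templates but its leading rearrangement, with Trbv2, held 3.54%, or 17.1% of the Trbj2-3 templates. Trbj2-1 led in 9 of the 16 mice, Trbj2-2 in 3, Trbj2-3 in 3 and Trbj2-4 in 1. In 8 mice the leading rearrangement was also the most frequent over all J genes.

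**Figure D2:**
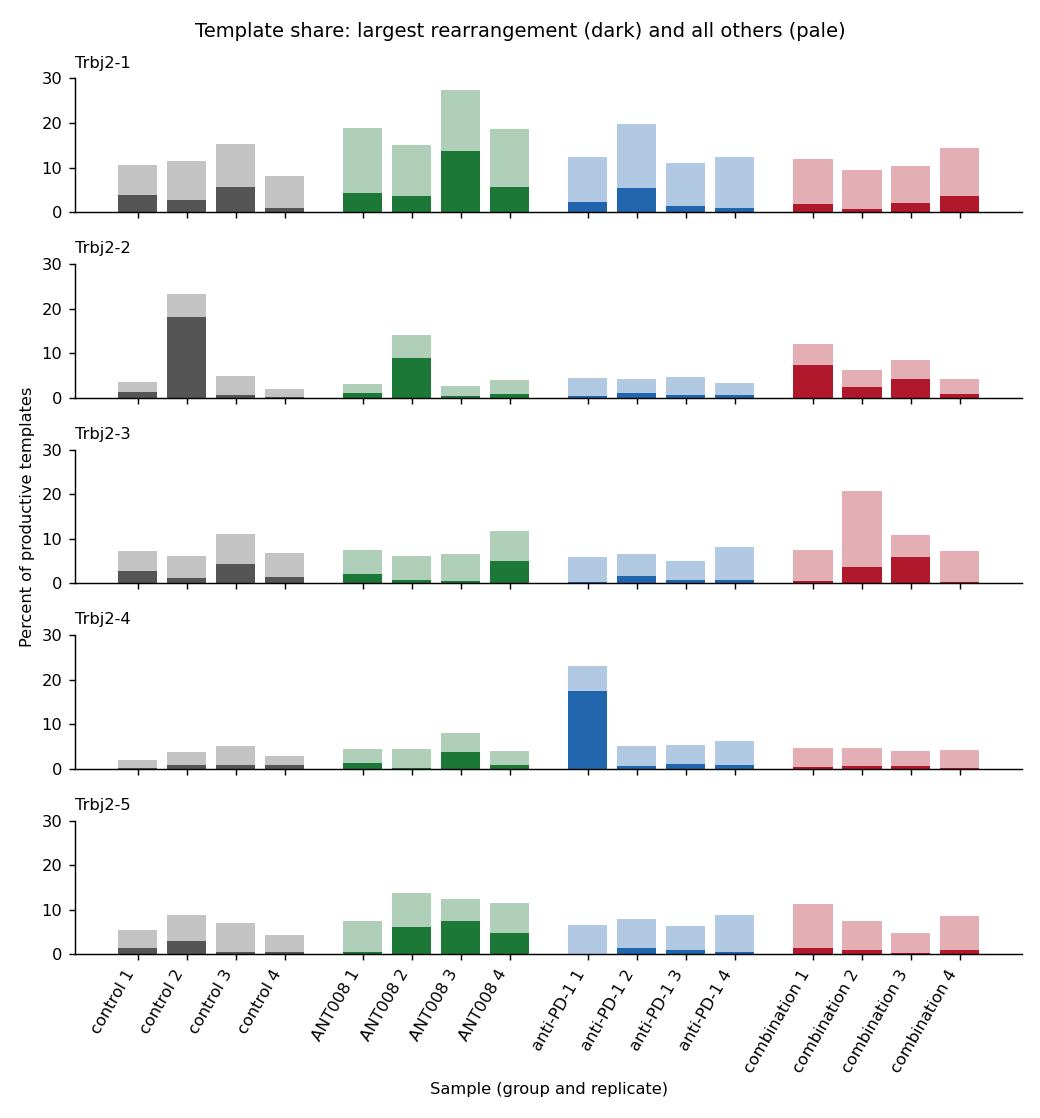
Template share of each of the 5 J genes (percent of productive templates, y axis) in each of the 16 mice (x axis), with 1 panel per J gene. The dark part of a bar is the largest rearrangement of the J gene, and the pale part is all its others. The bar of Trbj2-2 in control replicate 2 reaches 23.2%, of which the dark part is 18.2%. That of Trbj2-3 in combination replicate 2 reaches 20.7%, with a dark part of 3.54%.

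The CDR3 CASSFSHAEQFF, made from Trbv14 and Trbj2-1, led in 2 mice of different groups. The leading rearrangement alone held 5.62% of productive templates in ANT008 replicate 4 and 5.51% in anti-PD-1 replicate 2, and these nucleotide sequences, printed above, differed at 1 of 87 positions. Over all its nucleotide sequences, 8 and 13 in these mice, the CDR3 held 5.66% and 5.56%. The remaining leading clones held from 0.919% (66 templates, anti-PD-1 replicate 4, with Trbj2-1) to 7.31% (2443 templates, combination replicate 1, Trbv13-1 with Trbj2-2). They included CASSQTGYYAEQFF at 3.85% in control replicate 1, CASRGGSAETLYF at 1.45% in control replicate 4 and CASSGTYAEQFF at 1.31% in anti-PD-1 replicate 3. The CDR3 that led in anti-PD-1 replicate 4 was also found in combination replicate 3, with 95 templates, and with 1 template each in anti-PD-1 replicates 2 and 3.

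Rearrangements of at least 1% of productive templates numbered 163 over all J genes, and 63 of them (38.7%) used the 6 genes. Trbj2-1 gave 26, Trbj2-3 gave 15, Trbj2-2 gave 9, Trbj2-5 gave 8, Trbj2-4 gave 5 and Trbj2-6 gave 0, against 58 for Trbj2-7.

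Large template counts were not limited to productive rearrangements. The out-of-frame Trbv3 and Trbj2-3 rearrangement of control replicate 2 encodes no receptor. It held 7776 of 23256 out-of-frame templates (33.4%, 32.8% to 34.0%) and 77.9% of the Trbj2-3 templates of that class. In the same mouse the leading productive rearrangement, Trbv1 with Trbj2-2, held 7510 templates. Whether the same cells carried both was not tested.

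Trbv3 with Trbj2-3, out of frame, control replicate 2: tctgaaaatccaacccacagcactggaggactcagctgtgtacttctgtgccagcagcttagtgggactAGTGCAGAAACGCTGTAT

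Template and unique shares were next compared within each mouse, to ask whether a J gene sat in larger or smaller clones than the average. Trbj2-5 was the only one of the 5 genes called, at 8.28% of templates against 11.2% of unique rearrangements (difference −2.94 percentage points, SE 0.687, lower in 14 of 16 mice, adjusted p = 0.00467, two-sided sign-flip permutation test within mice). Over all J genes tested, 33.3% were called, 25% with a lower share. Trbj2-4 was lower in 15 of 16 mice, with a mean difference of −2.10 (adjusted p = 0.169), and anti-PD-1 replicate 1 was the exception. It was called without that mouse, at −3.25 (adjusted p = 0.000244), without the largest clone of each J gene, at −2.65 (lower in 16 of 16 mice, adjusted p = 9.16e-05), and among out-of-frame rearrangements, at −2.22 (adjusted p = 0.00146). Trbj2-1 differed by 1.18 (adjusted p = 0.563), Trbj2-2 by 0.919 (0.704) and Trbj2-3 by −0.102 (0.938), and the sum of the 6 genes by −3.04 (unadjusted p = 0.177). Trbj2-7 moved the other way, at 29.0% of templates against 21.1% of unique rearrangements (7.83, adjusted p = 0.00452). Trbj2-5 was also called among out-of-frame rearrangements, at −2.69 (lower in 15 of 16 mice, adjusted p = 0.0135 by sign-flip permutation). It was no longer called without rearrangements of 1 template, at −1.10 (adjusted p = 0.329).

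Productive shares were then compared with out-of-frame shares of the same mouse, over unique rearrangements. Trbj2-1 was higher among productive rearrangements, at 13.0% against 11.6% (difference 1.38, SE 0.207, higher in 15 of 16 mice, adjusted p = 0.000275, sign-flip permutation). Trbj2-5 was also higher, at 11.2% against 10.8% (0.403, SE 0.146, 12 of 16, adjusted p = 0.0210), but was not called in the 12 treated mice (0.366, adjusted p = 0.0957). Trbj2-3 was lower, at 8.54% against 9.05% (−0.511, SE 0.171, lower in 14 of 16, adjusted p = 0.0118). Trbj2-2 (−0.0284, adjusted p = 0.850) and Trbj2-4 (−0.0189, adjusted p = 0.892) were not called. Of all J genes tested 83.3% were called, 41.7% in each direction, so 3 of 5 is no more than the share over all J genes. Together the 6 genes made up 46.2% of productive and 45.01% of out-of-frame rearrangements (difference 1.19, higher in 13 of 16 mice, unadjusted p = 0.000549). With stop-codon rearrangements in place of out-of-frame ones, the sum differed by −0.218 (higher in 8 of 16 mice, unadjusted p = 0.854) and Trbj2-5 by −0.00978 (adjusted p = 0.989), and with templates the sum gave an unadjusted p of 0.172. Without single templates, Trbj2-3 gave 0.103 in place of a lower share, and with templates in place of unique rearrangements none of the 5 genes was called.

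**Figure D3:**
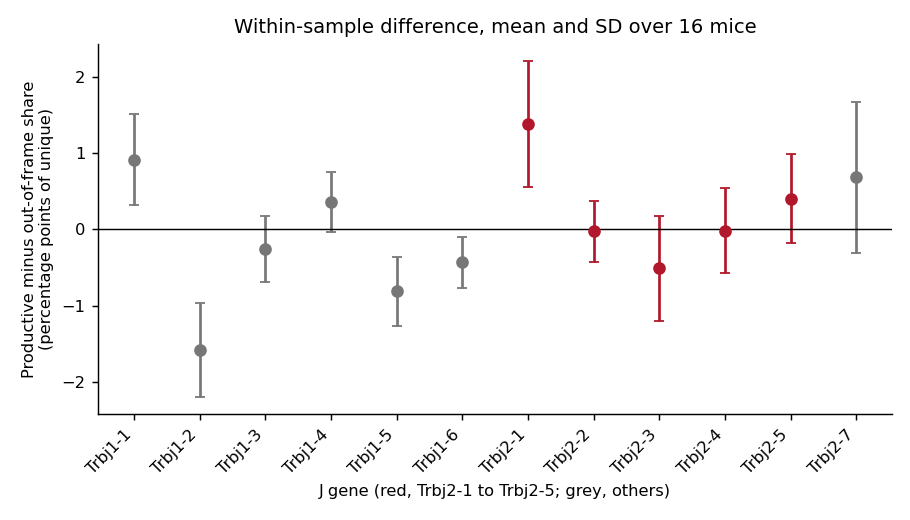
Productive minus out-of-frame share of unique rearrangements for each J gene (percentage points, y axis), as the mean over the 16 mice with SD. The mean of Trbj2-1 lies above 0, and its difference was above 0 in 15 of 16 mice. That of Trbj2-3 lies below 0, and its difference was below 0 in 14 of 16 mice. The means of Trbj2-2 and Trbj2-4 lie close to 0. Single mice are not drawn.

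The joints differed by J gene in a manner that held across mice. Among Trbj2-1 to Trbj2-5, Trbj2-3 lost the fewest J bases, 1.51 ± 0.101 (SD, n = 16) on average per unique productive rearrangement. Of its rearrangements, 43.7% had lost none. Trbj2-4 lost 2.22 ± 0.150 with 37.7% untrimmed, and Trbj2-2 lost 2.46 ± 0.146 with 23.9% untrimmed. Trbj2-1 and Trbj2-5 lost more, 3.23 ± 0.0948 with 13.8% untrimmed and 3.20 ± 0.0806 with 18.2% untrimmed. The commonest deletion of Trbj2-1 was 3 bases (20.97% ± 2.14 of its rearrangements), which takes away the capitals TAA of the sequence shown above, whereas that of the other 4 genes was 0.

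**Figure D4:**
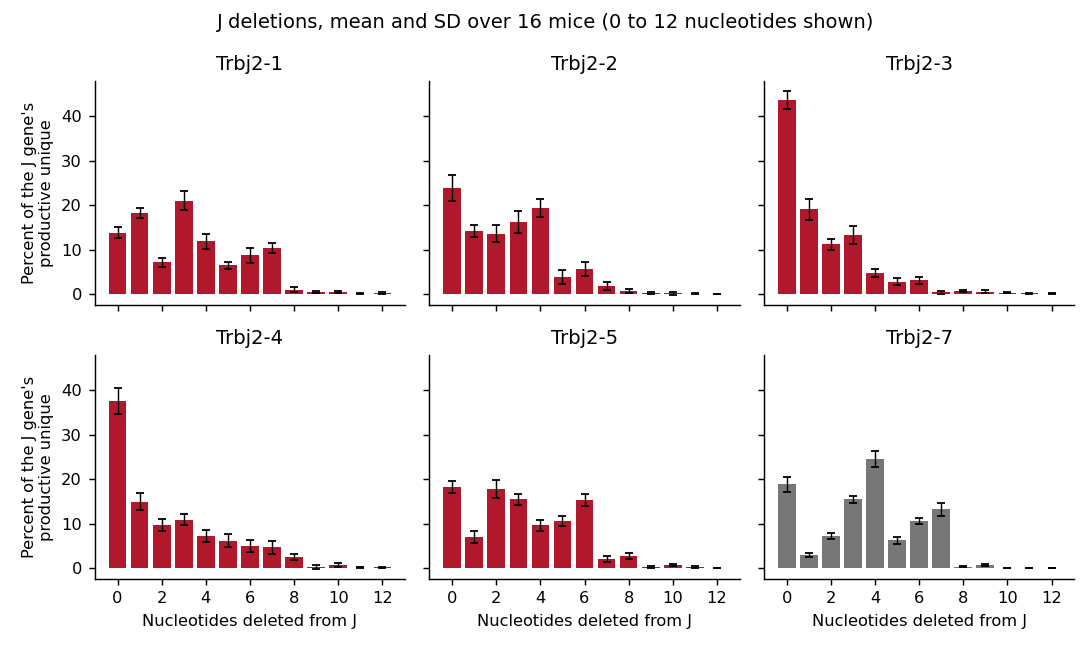
Percent of unique productive rearrangements (y axis) that lost each number of J bases (x axis, nucleotides), for the 5 J genes and Trbj2-7, as the mean over 16 mice with SD. Trbj2-3 and Trbj2-4 peak at 0 bases, at 43.7% and 37.7%, whereas Trbj2-1 peaks at 3 and Trbj2-7 at 4.

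Set against all other J genes of the same mouse, J deletions were called for all 5 genes, as for 91.7% of the J genes tested (50% higher and 41.7% lower). They were lower for Trbj2-3 (difference −1.46), Trbj2-4 (−0.68) and Trbj2-2 (−0.41) and higher for Trbj2-1 (0.44) and Trbj2-5 (0.41), each in 16 of 16 mice (adjusted p = 4.99e-05 by sign-flip permutation, the smallest it gave). CDR3 length, measured in nucleotides, was called for every J gene tested (100%), higher for 66.7% and lower for 33.3%. It was 44.2 for Trbj2-2, 44.0 for Trbj2-3, 43.1 for Trbj2-1, 42.9 for Trbj2-4 and 42.1 for Trbj2-5. The 6 genes pooled had a mean of 43.1 against 41.0 for the others (difference 2.08, higher in 16 of 16 mice, unadjusted p = 3.05e-05, the smallest that 65536 sign patterns allow). The excess of Trbj2-5 was small, 0.0780 (adjusted p = 0.0231), it was not called in the 12 treated mice (0.0722, adjusted p = 0.0873), and it turned to −0.143 without single templates.

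These lengths went with the J bases left in the read. They came to 17.5 for Trbj2-2, 16.5 for Trbj2-3, 15.8 for Trbj2-1 and Trbj2-4 and 14.8 for Trbj2-5. Trbj2-7 kept 12.4, the lowest of the J genes tested, with a CDR3 length of 40.1. The Trbj1 genes tested kept from 14.2 (Trbj1-1) to 18.0 (Trbj1-6), with CDR3 lengths from 39.9 to 43.1 in the same 2 genes. Both ranges overlapped those of the 5 genes. Inserted nucleotides varied less between genes. Trbj2-3 had the most, 3.83 ± 0.119 (difference from the other J genes 0.300, higher in 16 of 16 mice, adjusted p = 4.99e-05). Trbj2-4 had 3.66, Trbj2-5 had 3.62, Trbj2-1 had 3.47 and Trbj2-2 had 3.43, all called, as were 83.3% of J genes (33.3% higher and 50% lower). Among out-of-frame rearrangements Trbj2-3 was the only one of the 5 called. On the D-J side of the joint Trbj2-3 had 1.98 inserted bases, Trbj2-4 had 1.85 and Trbj2-5 had 1.82. Trbj2-1 had 1.60 there, Trbj2-2 had 1.62 and Trbj2-7 had 1.73. On the V-D side the 5 genes ran from 1.80 to 1.87. The sides were not tested separately.

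By treatment, none of the junction measures of the 6 genes passed adjustment over the family of 15 comparisons. The mean J deletion was 2.60 in control, 2.70 in ANT008, 2.64 in anti-PD-1 and 2.61 in combination mice, and the ANT008 difference of 0.104 bases had an exact permutation p of 0.0475 (adjusted p = 0.713). CDR3 length averaged 43.2, 43.0, 43.1 and 43.3 nucleotides and insertions 3.62, 3.57, 3.57 and 3.64.

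D genes were called by the service from the short stretch left between V and J. Rearrangements of the 6 genes had a TCRBD02 (Trbd2) call in 53.1% ± 2.15 (SD, n = 16), against 27.1% ± 1.21 for the other J genes, a difference of 26.0 percentage points seen in 16 of 16 mice. A TCRBD01 (Trbd1) call was given in 30.4% against 52.3%, and no single D gene in 16.5% against 20.6% (adjusted p = 3.05e-05 by sign-flip permutation for each, 100% of the 3 categories called, 33.3% higher and 66.7% lower). The other J genes include the Trbj1 cluster, where TCRBD02 was called in 6.71% to 9.61% per gene although Trbd2 lies downstream of it. The direction of this comparison was therefore largely set in advance by gene order, as it was gene by gene below. Against Trbj2-7 alone, the 6 genes had the lower TCRBD02 share, at 53.1% against 56.2%. That difference was −3.16 percentage points (lower in 15 of 16 mice, adjusted p = 0.000183 by sign-flip permutation).

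Taken gene by gene against all other J genes of the same mouse, the TCRBD02 call was higher for each of the 5 genes, by 4.90 percentage points for Trbj2-2 (14 of 16 mice), 15.5 for Trbj2-5, 16.8 for Trbj2-3, 17.6 for Trbj2-4 and 18.3 for Trbj2-1 (16 of 16 mice each). All were called by the sign-flip permutation test, as were 100% of the J genes tested, 50% of them higher and 50% lower, and the lower ones were the Trbj1 genes. Counted by templates, Trbj2-4 and Trbj2-5 were called and the other 3 were not.

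Within the second cluster, Trbj2-2 stood apart. TCRBD02 was called in 43.7% ± 4.19 of its rearrangements, against 55.0% ± 2.00 for Trbj2-1, 54.5% for Trbj2-3, 55.3% for Trbj2-4, 52.9% for Trbj2-5 and 56.2% for Trbj2-7. Trbj2-2 was lower than Trbj2-7 by 12.5 percentage points, in 16 of 16 mice (adjusted p = 0.000153, sign-flip permutation), and Trbj2-5 by 3.34 (14 of 16, adjusted p = 0.000916). Trbj2-1, Trbj2-3 and Trbj2-4 differed from Trbj2-7 by −1.21, −1.73 and −0.91 (adjusted p = 0.101, 0.0720 and 0.172). Out-of-frame rearrangements gave 43.8% ± 4.80 for Trbj2-2 and 56.9% ± 3.40 for Trbj2-1. In place of TCRBD02, Trbj2-2 carried TCRBD01 in 37.2%, against 26.9% to 31.2% for the other 4 genes.

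V genes are read from the same joint, and their pairing with the 6 genes was compared with that of all other J genes. Of 24 V genes tested 41.7% were called, 20.8% in each direction. Trbv4 had the largest excess, at 4.93% of unique productive rearrangements with the 6 genes against 3.54% with others (difference 1.39, SE 0.213, higher in 16 of 16 mice, adjusted p = 0.000732, sign-flip permutation). Trbv12-1 followed with 6.51% against 5.63% (15 of 16, adjusted p = 0.00171), and Trbv17 with 2.70% against 2.37%, Trbv12-2 with 5.54% against 4.93% and Trbv13-3 with 5.95% against 5.41% were also higher (adjusted p = 0.00571, 0.0400 and 0.0164). Trbv26 had the largest deficit, at 2.64% against 3.40% (lower in 15 of 16 mice, adjusted p = 0.000732). Trbv20 (2.63% against 3.26%), Trbv29 (4.46% against 5.07%), Trbv19 (7.56% against 8.13%) and Trbv15 (2.81% against 3.02%) were also lower (adjusted p = 0.00403, 0.0164, 0.0150 and 0.0400). Leaving out 1 mouse at a time, Trbv12-2 lost its call without any of 10 mice (adjusted p up to 0.0800) and Trbv15 without any of 10 (up to 0.0738), whereas the other 8 kept theirs. In the 12 treated mice Trbv17, Trbv12-2, Trbv13-3, Trbv29, Trbv19 and Trbv15 were not called (adjusted p = 0.0684, 0.270, 0.136, 0.136, 0.0609 and 0.196). Calls between the similar Trbv12-1 and Trbv12-2 are those of the service.

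The excess of Trbv4 was also called among out-of-frame rearrangements (0.985 percentage points, adjusted p = 0.0109) and against Trbj2-7 alone (0.695, adjusted p = 0.0417), but not when templates were counted (2.13, adjusted p = 0.116). Against Trbj2-7 the other 4 higher genes were not called, with Trbv12-1 at 0.341 (adjusted p = 0.243), Trbv17 at 0.0992 (0.393), Trbv12-2 at 0.363 (0.410) and Trbv13-3 at −0.0214 (0.946). The deficit of Trbv26 was not called against Trbj2-7 (−0.417, adjusted p = 0.110) or among out-of-frame rearrangements (−0.283, adjusted p = 0.0828). Of the other lower genes, Trbv15 was called against Trbj2-7 (−0.851, adjusted p = 0.000732) but not among out-of-frame rearrangements (−0.0302, adjusted p = 0.920). Trbv19 was called in neither (−0.294 and −0.609, adjusted p = 0.409 and 0.0815), Trbv20 was not called against Trbj2-7 (−0.303, adjusted p = 0.393), and Trbv29 was 0.453 there (adjusted p = 0.0862). The 5 genes did not pair alike. Trbv4 made up 5.70% ± 1.41 of Trbj2-3 and 5.63% ± 1.34 of Trbj2-5 rearrangements, but 3.64% ± 0.985 with Trbj2-2. Trbj2-2 in turn had the highest means of Trbv12-2, 7.82% ± 1.90 against 4.36% to 6.41% for the other 4 genes, and of Trbv17, 4.17% ± 0.871 against 1.98% to 2.77%. These per-gene values are descriptive and were not tested.

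**Figure D5:**
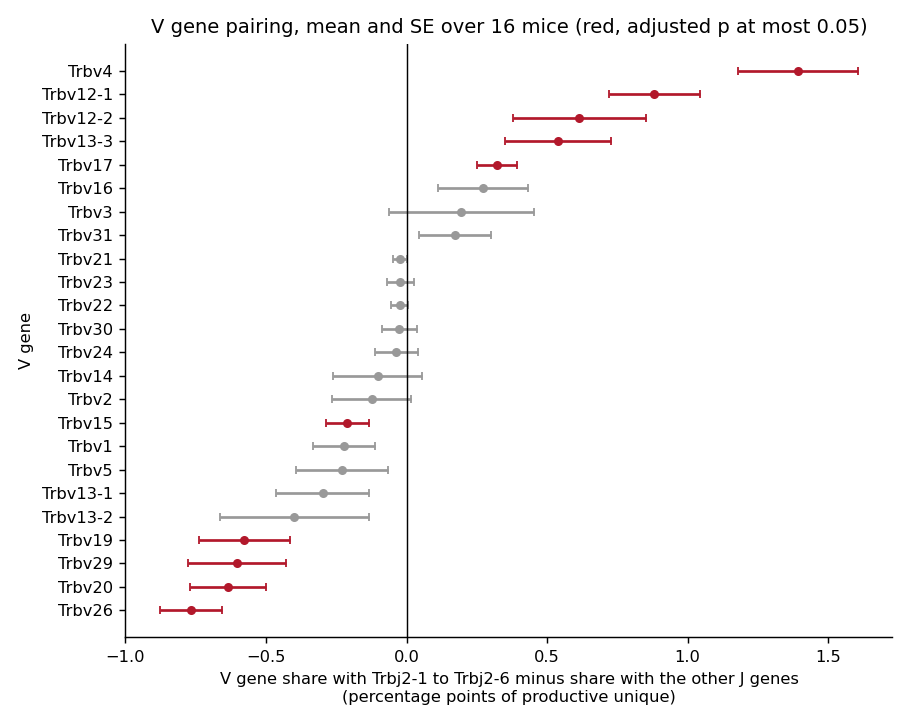
Share of each of the 24 V genes tested with the 6 J genes minus its share with any other J gene (percentage points of unique productive rearrangements, x axis). Points are the mean with SE over 16 mice, in red where the adjusted p is at most 0.05. Trbv4 lies at 1.39 and Trbv26 at −0.766. Of the other 8 named V genes only Trbv12-1, at 0.881, differs by more than Trbv26 on this scale.

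Trbj2-6 was found in 49 unique rearrangements in all. Of these, 37 were out of frame, with 58 templates in 11 mice, and made up 0.0527% of unique out-of-frame rearrangements. The remaining 12 were read in frame, with 26 templates in 8 mice, and made up 0.00950% of unique productive rearrangements. The 8 mice with 0 productive Trbj2-6 rearrangements allow a share of up to 0.0227% to 0.119%, and the 5 mice with 0 out-of-frame ones up to 0.0786% to 0.177%. Its counts were too low for the tests above.

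The 12 in-frame rearrangements with Trbj2-6 encoded 11 different CDR3s, all listed with a final D, whereas 100% of those with the other 5 genes were listed with F, the closing phenylalanine. Since the reads stop before the last codon, this residue was not read and goes with the J gene called. The service listed the 12 as in frame. Among the 12, TCRBD01 was called in 75% and TCRBD02 in 0%. The largest held 15 templates in control replicate 1, encoded CASSHRDSSLALTD, as did another rearrangement of 1 template in the same mouse, and is shown because it is the most abundant in-frame use of this pseudogene, with J-derived bases in capitals.

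Trbv14 with Trbj2-6, control replicate 1: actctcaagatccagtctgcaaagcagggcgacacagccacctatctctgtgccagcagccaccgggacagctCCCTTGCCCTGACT

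Most CDR3s of the 6 genes were private. Of 44137 CDR3 amino acid sequences, 5344 (12.1%) were found in 2 or more mice, 132 in 8 or more and 0 in all 16. Sharing here includes traces of large clones. Of the leading productive rearrangements of the 16 mice, 8 were also found with identical nucleotides in other mice, at no more than 3 templates. How these traces arose was not tested. For Trbj2-7 the share in 2 or more was 15.4%, and 3 were found in all 16, although deeper sampling of a gene also finds more shared sequences and this difference was not tested. Trbj2-2 (11.5%) and Trbj2-4 (11.4%) had the lowest shares among the 5 genes and Trbj2-5 (12.6%) the highest.

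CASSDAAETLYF, with Trbj2-3, was the most widely shared, in 15 of 16 mice. It was written in 21 nucleotide sequences and held 0.0138% to 0.401% of productive templates where found. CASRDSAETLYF, also with Trbj2-3, was found in 13 mice at a median of 0.183%, in 18 nucleotide sequences of which 8 had no inserted bases. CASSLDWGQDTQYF, with Trbj2-5, was found in 13 mice in 24 nucleotide sequences, 11 of them without inserted bases. A pair of longer CDR3s with Trbj2-1 were each found in 14 mice, in 28 and 21 nucleotide sequences. For each of these 5 CDR3s, which recurred most between mice, the commonest nucleotide sequence is shown in the order described, with J-derived bases in capitals and the number of mice that held that sequence, which is lower than the number that held the CDR3.

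Trbv13-1 with Trbj2-3, this sequence in 7 mice: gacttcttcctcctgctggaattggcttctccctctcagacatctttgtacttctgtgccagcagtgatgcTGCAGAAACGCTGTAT

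Trbv13-1 with Trbj2-3, this sequence in 10 mice: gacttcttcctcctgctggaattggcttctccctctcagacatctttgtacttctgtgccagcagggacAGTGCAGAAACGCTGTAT

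Trbv12-1 with Trbj2-5, this sequence in 5 mice: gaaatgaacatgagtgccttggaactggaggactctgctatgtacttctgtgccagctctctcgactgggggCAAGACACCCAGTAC

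Trbv3 with Trbj2-1, this sequence in 7 mice: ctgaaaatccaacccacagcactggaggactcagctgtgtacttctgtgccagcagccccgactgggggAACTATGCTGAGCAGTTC

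Trbv29 with Trbj2-1, this sequence in 3 mice: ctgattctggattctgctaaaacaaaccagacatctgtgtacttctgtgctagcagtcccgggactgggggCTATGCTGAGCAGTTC

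The second of these joins Trbv13-1 to an untrimmed Trbj2-3 end, with all 18 of its bases in capitals and no inserted base, and was found in 10 mice with 867 templates in all. The first was found in 7 mice with 263 templates and carries 1 inserted base.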

How the data were processed

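TCRβ rearrangements were surveyed in 16 samples with the mouse immunoSEQ assay of Adaptive Biotechnologies, which amplifies with V and J primers and corrects amplification with a synthetic repertoire. The deposited values were whole-number template counts per unique rearrangement of 87 nucleotides, with V, D and J calls, deletions and insertions made by the service. The aligner and reference build are not given in the sources used here, so no coordinates are printed. All 14 J names matched RefSeq symbols (GRCm38.p6), used for names, order and biotype.

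Groups came from the labels. Shares were percent of the sample's productive, or out-of-frame, templates or unique rearrangements. J gene counts were fitted with edgeR 4.0.16 (R 4.3.3) in 1 model of all samples, with library size fixed and J genes of at least 10 counts in at least 4 samples kept (12, without Trbj2-6). DESeq2 1.42.0 was an alternative. Within-sample differences were tested by two-sided sign flips and treatment differences by an exact permutation form of Dunnett's test (Python 3.11.15, scipy 1.17.1), at an adjusted p of 0.05. Tests were checked on simulated data. V genes are named by a rule, the 5 largest ratios in each direction among those called, and clones as the leading one per sample and the 5 most shared.

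The J genes, lists and tests were chosen with earlier results of these data known. Nothing beyond the labels' replicate numbers says that samples were handled separately. Unresolved J calls were 0.0776% of templates and entered totals only. Alternatives covered scaling, filters, weights, rearrangement class, depth, the largest clone and each sample left out.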

Additional observations from a re-analysis of the deposited data

Results flagged for a closer look

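Shares of 5 of the J genes, with the summed shares and junction measures of the 6, were screened in 60 groups of 4 mice. A mouse stood apart from the other 3 if its gap to the nearest, over the whole range, was above Dixon's 95% critical value. This was so for 6 values, each of them the share of a single J gene. Chance alone sets about 1 in 20 such groups apart.

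Trbj2-2 made up 23.2% of productive templates in control replicate 2, against 1.88% to 4.88% in the other controls, and 14.0% in ANT008 replicate 2, against 2.56% to 3.89% in the other ANT008 mice. Trbj2-4 made up 23.1% in anti-PD-1 replicate 1, against 5.11% to 6.20%, and 8.05% in ANT008 replicate 3, against 4.04% to 4.40%. Trbj2-1 made up 19.7% in anti-PD-1 replicate 2, against 11.0% to 12.4%. Among unique productive rearrangements, Trbj2-4 made up 7.56% in combination replicate 3, against 7.87% to 7.90%.

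In control replicate 2, ANT008 replicate 2 and anti-PD-1 replicate 1, a single rearrangement held 78.6%, 63.0% and 75.8% of the J gene's templates.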

How the results depend on the processing

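Depth limited Trbj2-6, whose counts were too low to test. The Trbj2-4 call with anti-PD-1 (1 gene) fell to 0 without the most frequent rearrangement and under the replicate block, where its log2 fold change was 1.42 (adjusted p = 0.0510 by edgeR). The count was also 0 under the exact permutation of shares, which could not call 1 gene alone with 4 mice per group. Whether replicate numbers pair the mice was not settled. Of the same-number correlations, 6 of 24 for templates and 7 of 24 for unique rearrangements were over 0.1. They ran from −0.514 to 0.544 and from −0.638 to 0.626, and pairs of different numbers were not set beside them. The block changed no other count of calls by treatment. Leaving out 1 mouse at a time, calls among the 5 genes ranged from 0 to 2 for ANT008, 0 to 1 for anti-PD-1 and 0 to 3 for the interaction over templates, and from 0 to 1 for the combination over unique rearrangements. The cause of the changes below was not tested, apart from fewer rearrangements or samples where those were left out.

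By treatment, out-of-frame rearrangements gave a CDR3 length difference of −0.0765 (combination) and insertion differences of 0.00262 (ANT008) and −0.0278 (combination). Weighted by templates these were −0.542 (CDR3 length, combination), 0.287 (insertions, ANT008) and 0.182 (insertions, anti-PD-1). The summed unique share with anti-PD-1 was −0.677 without single templates. Leave-one-out ranges were −0.0534 to 9.73 for the summed template share with anti-PD-1, −0.0598 to 0.153 (CDR3 length, combination), −0.0122 to 0.0303 (J deletions, combination), and for insertions −0.115 to −0.0160 (ANT008), −0.116 to −0.0165 (anti-PD-1) and −0.0434 to 0.0560 (combination). Without control replicate 4 the first 2 insertion differences passed (adjusted p = 0.0468 by exact permutation).

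For productive against out-of-frame shares, templates gave 0 calls, 2.97 for the sum, 1.25 for Trbj2-2 and 0.101 for Trbj2-4. Stop-codon rearrangements as the background gave −0.218 for the sum and −0.00978 for Trbj2-5. Without single templates Trbj2-2 gave 0.103 and Trbj2-3 gave 0.103. Leave-one-out values of Trbj2-2 ran from −0.0653 to 0.0277 and of Trbj2-4 from −0.0894 to 0.0360. For templates against unique shares, out-of-frame rearrangements gave 2 calls, −4.82 for the sum, −0.434 for Trbj2-1, −0.355 for Trbj2-2 and 0.898 for Trbj2-3. Without single templates there were 0 calls, with −3.60 for Trbj2-1 and 1.18 for Trbj2-3. Without the largest clone of each J gene there were 2 calls, −4.62 for the sum, −0.815 for Trbj2-2 and 0.179 for Trbj2-3. The 12 treated mice gave 0.118 for Trbj2-3. Leave-one-out calls ran from 1 to 2 (2 without anti-PD-1 replicate 1), Trbj2-2 from −0.186 to 1.20 and Trbj2-3 from −0.877 to 0.0912.

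For junction measures against other J genes, templates left 3 of 5 calls for CDR3 length, 2 for insertions and 3 for J deletions, a pooled insertion difference of 0.283 and 0.105 for Trbj2-2 insertions. Out-of-frame rearrangements left 1 insertion call, with 0.00758 pooled, −0.0390 for Trbj2-4 and −0.0469 for Trbj2-5. Without single templates 2 insertion calls were left and the CDR3 length difference of Trbj2-5 was −0.143. For V genes, higher and lower calls were 2 and 2 in the 12 treated mice, 0 and 1 with templates, and 2 lower against Trbj2-7. With templates Trbv12-1 gave −1.39, Trbv12-2 −0.601, Trbv13-3 −0.228 and Trbv15 0.0693. Against Trbj2-7, Trbv13-3 gave −0.0214 and Trbv29 0.453, and without single templates Trbv12-2 gave −0.0995. For D calls against Trbj2-7, TCRBD01 gave 0.667, TCRBD02 −3.16 and no single D 2.50, and TCRBD02 was called for 2 genes, with −1.21, −12.5, −1.73, −0.912 and −3.34 from Trbj2-1 to Trbj2-5. With templates no single D gave −1.30 and 2 genes were called. For single J, V and D genes, besides the changes of direction, a call was lost in 49 and gained in 2 of 227 alternatives, and lost in 22 and gained in 12 of the 752 that left out 1 mouse.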

Other observations

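A second copy of a J end was found upstream of the J gene called in 11 rearrangements of the 6 genes, searched by the last 12 bases of the untrimmed ends of Trbj2-1 to Trbj2-5 and Trbj2-7. In all 11 the upstream end was that of the same J gene. Of these, 2 were productive, with 2 templates, and 9 were out of frame, with 271 templates. The largest, out of frame with Trbv2 and Trbj2-1, was found in combination replicate 2 with 262 templates, where it led the out-of-frame rearrangements of the 6 genes at 2.64%, and 31 bases were listed as inserted between D and J.

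Trbv2 with Trbj2-1, out of frame, combination replicate 2: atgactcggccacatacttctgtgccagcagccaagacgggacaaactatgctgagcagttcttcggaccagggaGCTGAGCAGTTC

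The capitals mark the bases assigned to the J gene. How such joints arose was not tested.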
